A study of Homo sapiens with 26 samples.

Results

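The comparison described here asks what DNMT3A siRNA changed in cells that already received siRNA against DNMT1 and DNMT3B. It was made in NCCIT cells, a human embryonal carcinoma line, on Affymetrix Human Gene 1.0 ST arrays. Its members are the 4 arrays of siD1+3A+3B (siRNA against DNMT1, DNMT3A and DNMT3B, 2 arrays) and siD1+3B (siRNA against DNMT1 and DNMT3B, 2 arrays), out of 26 arrays in 13 groups of 2. They were chosen by their sample titles, and log2 differences were taken as siD1+3A+3B minus siD1+3B across 18417 genes. The groups used for reference were siNTC-2 (a control siRNA), siNTC-1 (a control siRNA under a separate name), siDNMT3A (DNMT3A siRNA alone), 3B+3L (DNMT3B and DNMT3L siRNA) and 3A+3B+3L (DNMT3A, DNMT3B and DNMT3L siRNA). All groups are the same line and had been transfected with the PepMute reagent. The labels give neither the amount of each siRNA, nor whether the total was held equal between groups, nor the time from transfection to extraction. Nor do they say that duplicate arrays stand for separate cultures; every p-value below therefore reflects the spread between arrays, which may be technical.

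DNA methyltransferases write 5-methylcytosine at CG dinucleotides. DNMT1 copies the pattern onto the new strand after replication, DNMT3A and DNMT3B are the de novo enzymes, and DNMT3L is a catalytically inactive partner of the de novo enzymes that is active in germ cells and pluripotent cells. In embryonic cells promoter methylation is known for keeping a set of germline genes silent. The integrated stress response, which takes up much of what follows, is a separate programme: when translation initiation is slowed by phosphorylation of eIF2 alpha, the ATF4 protein is made and switches on genes of amino acid supply, glutathione turnover and growth control.

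Marker lists were set across the 4 arrays, since levels of different probes cannot be compared with each other. The mean log2 level of 8 measured embryonal carcinoma markers was 11.17 and 11.16 on the siD1+3B arrays and 11.12 on each siD1+3A+3B array. Over the 4 arrays the mean of definitive and extraembryonic endoderm markers was 4.94 to 5.02, of mesoderm markers 5.25 to 5.35, of trophoblast markers 5.45 to 5.52, of neuroectoderm and neural crest markers 6.68 to 6.76 and of yolk sac tumour and seminoma markers 6.90 to 7.01. Array medians of all 26 arrays ran from 6.28 to 6.33. Duplicates correlated at 0.997 to 0.999 across genes. The first principal component of the genes, 49.5% of the variance, placed siNTC-1, siDNMT1, siDNMT3B and siDNMT3L apart from the other 9 groups. Among those 9 it still ran from 3.40 and 3.82 for siD1+3B over 7.77 and 9.51 for siD1+3A+3B to 18.12 and 18.13 for siNTC-2. The arrays labelled 3A+3B+3L stood at 3.85 and 4.44 on it, 3B+3L at 17.67 and 20.18 and siDNMT3A at 15.40 and 16.48. No label names a batch, and the part of this component in the results below was not tested.

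DNMT3A mRNA fell on addition of its siRNA. Its log2 level was 7.33 and 7.35 in siD1+3B and 6.95 and 6.81 in siD1+3A+3B, against 7.26 and 7.31 in siNTC-2. The groups did not overlap. The log2 difference was -0.46 ± 0.07 (SE, n = 2 arrays in each group), with an adjusted p of 0.00181 in limma's moderated test, which left 72.7% of the siD1+3B level. When the fit was restricted to the 4 arrays compared the adjusted p was 0.119, and over all alternatives it ran from 0.000644 to 0.119.

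DNMT1 mRNA, the target of an siRNA present in both groups, was higher in siD1+3A+3B. It stood at 9.19 and 9.28 in siD1+3A+3B, at 8.99 and 8.97 on the siD1+3B arrays and at 9.98 and 9.99 in siNTC-2. The log2 difference was 0.26 ± 0.05 (adjusted p = 0.0155), or 1.19-fold. Set against siNTC-2, DNMT1 mRNA was at 49.9% in siD1+3B and at 59.5% in siD1+3A+3B, so the groups differed in DNMT1 mRNA as well as in DNMT3A mRNA. The call for DNMT1 was lost in the fit of the 4 arrays alone (adjusted p = 0.184) and without siD1+3B replicate 1 (adjusted p = 0.0878), siD1+3B replicate 2 (0.119) or siD1+3A+3B replicate 2 (0.165), and its adjusted p over all alternatives ran from 0.00199 to 0.184.

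DNMT3B mRNA, the other shared target, was 11.28 on both siD1+3B arrays, 11.50 and 11.44 on the siD1+3A+3B arrays and 11.68 and 11.66 in siNTC-2. Set against siNTC-2 it was at 76.4% in siD1+3B and at 87.1% in siD1+3A+3B, and the siD1+3B and siD1+3A+3B arrays did not overlap. Its log2 difference of 0.19 ± 0.06 did not pass the test (adjusted p = 0.122). A trended and robust variance prior or array weights brought it past the threshold, with an adjusted p of 0.0209 and 0.0475 in a range of 0.0209 to 0.47. DNMT3L mRNA, which was not targeted in either group, was 6.08 and 5.74 in siD1+3B and 5.93 and 5.89 with DNMT3A siRNA added, with overlapping arrays, a log2 difference of -0.0029 and an adjusted p of 0.996; its sign turned without siD1+3B replicate 1 or siD1+3A+3B replicate 2. Of 13 methylation enzymes and partners, DNMT3A and DNMT1 were the 2 that passed the threshold, beside 3.02% of all genes. What the levels of DNMT1 and DNMT3B mRNA contributed to the results below was not tested.

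**Figure D1:**
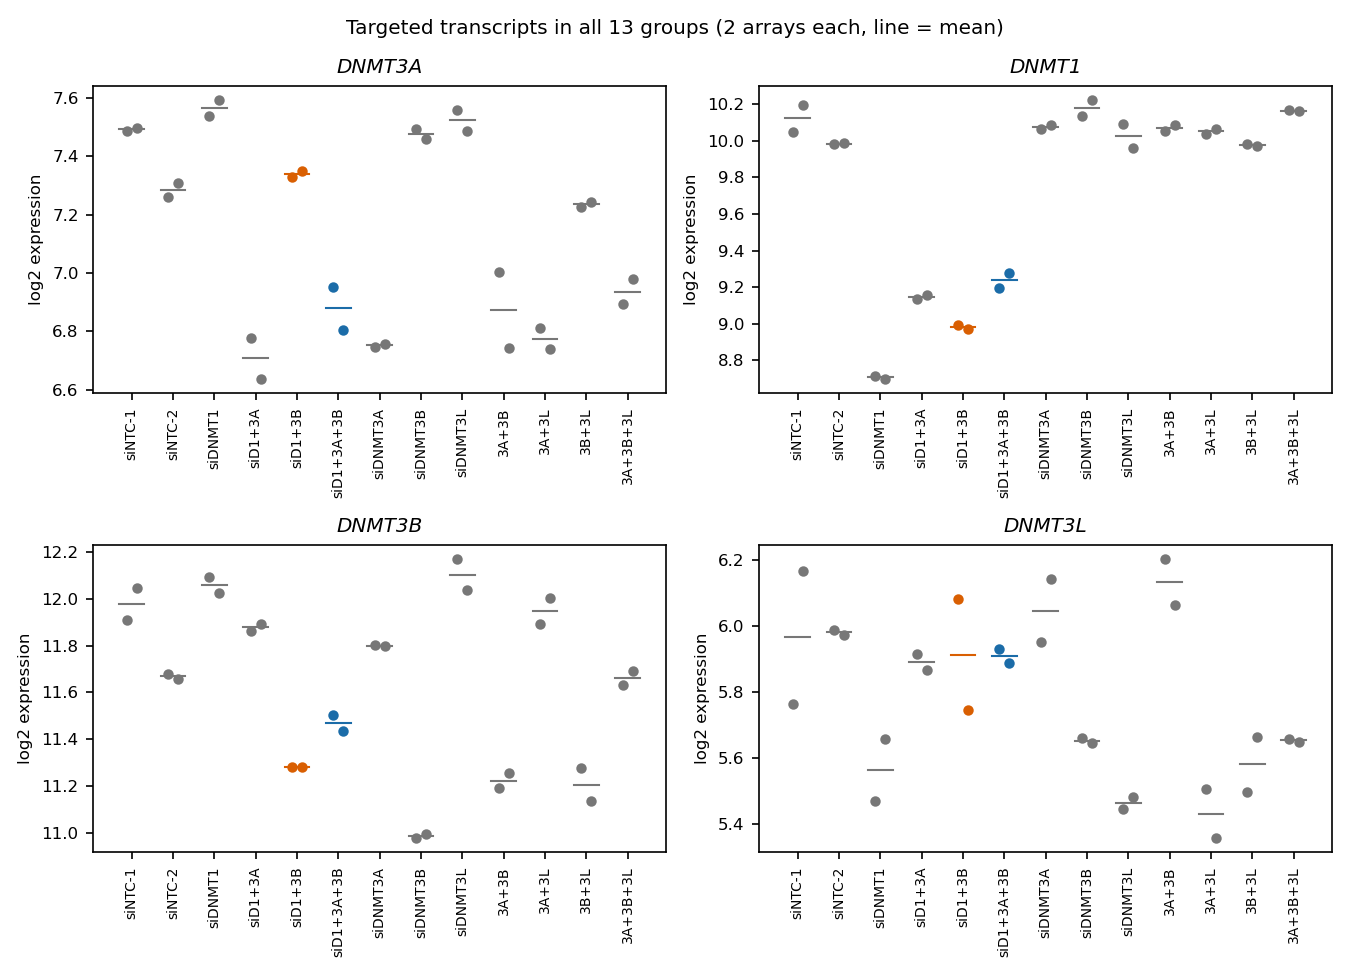
Log2 expression of DNMT3A, DNMT1, DNMT3B and DNMT3L in all 13 groups, 1 point per array and a line at the mean of 2 arrays, with siD1+3B in orange and siD1+3A+3B in blue. DNMT3A was lower in siD1+3A+3B (6.95 and 6.81) than in siD1+3B (7.33 and 7.35), while DNMT1 was higher (9.19 and 9.28 against 8.99 and 8.97).

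Across the 18417 genes, 556 passed an adjusted p of 0.05, which is 3.02% of the genes tested, and 2767 had an unadjusted p under 0.05. Of the 556, 246 were higher in siD1+3A+3B (1.34% of genes) and 310 lower (1.68%). A change of at least 1.5-fold was reached by 30 of them (0.163%), of which 19 were higher (0.103%) and 11 lower (0.0597%). The median log2 difference of all genes was -0.0037. At the threshold, GPATCH4 was the last gene past it (-0.25, adjusted p = 0.04989) and LIN9 the first outside (-0.20, adjusted p = 0.05008). The count rests on the spread shared by all 13 groups: it was 12 in a fit of the 4 arrays alone, 147 and 114 without siD1+3B replicate 1 or 2, and 165 and 146 without siD1+3A+3B replicate 1 or 2.

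Genes of the integrated stress response made up most of the largest rises. Of 30 measured members of this list, 20 rose, none passed the test in the lower direction by limma (0 also at an unadjusted p under 0.05), and the median log2 difference was 0.37, beside 1.34% of all genes called higher and a median of -0.0037. In a fit of the 4 arrays alone 6 of the 30 were higher. Without siD1+3B replicate 1 or 2 the number was 13 each, and without siD1+3A+3B replicate 1 or 2 it was 15 and 12.

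The promoters of 3 members that rose are shown because each holds the core of the C/EBP-ATF response element, the DNA element bound by ATF4 with C/EBP partners. The letters searched were TGATGNAA, on both strands of the 250 bases before each transcription start in RefSeq's GRCh38.p14 table, and the match is in capitals. In CHAC1 (chr15:40953221-40953470, plus strand) the match lies on the opposite strand and begins 209 bases before the start. In ATF3 (chr1:212565157-212565406, plus strand) it begins 191 bases before the start of 1 of 2 listed promoters. In ASNS (chr7:97872409-97872658, minus strand) it begins 68 bases before the start of 1 of 2 listed promoters.
CHAC1: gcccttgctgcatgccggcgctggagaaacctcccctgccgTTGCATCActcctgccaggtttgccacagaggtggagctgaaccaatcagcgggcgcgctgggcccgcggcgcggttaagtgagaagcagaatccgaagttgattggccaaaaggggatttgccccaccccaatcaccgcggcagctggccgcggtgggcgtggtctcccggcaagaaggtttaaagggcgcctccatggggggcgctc
ATF3: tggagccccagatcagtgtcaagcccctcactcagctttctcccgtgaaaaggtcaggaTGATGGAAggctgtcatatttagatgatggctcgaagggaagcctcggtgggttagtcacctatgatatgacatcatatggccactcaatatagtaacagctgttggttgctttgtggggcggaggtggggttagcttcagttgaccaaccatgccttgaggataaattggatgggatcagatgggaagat
ASNS: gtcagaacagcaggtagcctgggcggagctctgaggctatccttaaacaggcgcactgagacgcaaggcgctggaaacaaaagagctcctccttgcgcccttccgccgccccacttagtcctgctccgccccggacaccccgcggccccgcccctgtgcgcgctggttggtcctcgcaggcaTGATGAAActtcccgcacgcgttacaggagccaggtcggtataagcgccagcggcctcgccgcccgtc
Of the 30 measured members 24 had an entry in the table, and 5 of these (20.8%) had a match in at least 1 promoter, while 3.12% of the genes on the array with an entry, 3.89% of all genes in the table and 3.14% of its 35116 promoters did. Of the 16 members with an entry that rose, 3 had a match (18.8%). A match describes letters and is not evidence of binding, and other matches to the element were not searched.

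The members with the smallest adjusted p included regulators of growth. DDIT4, an inhibitor of the growth kinase complex mTORC1, was at 7.18 and 7.23 in siD1+3B and at 8.86 and 8.94 in siD1+3A+3B. It rose by 1.70 ± 0.08 on the log2 scale (adjusted p = 7.74e-10), or 3.24-fold. INHBE, which encodes the activin beta E subunit, went from 6.07 and 6.16 to 7.57 and 7.75, a log2 difference of 1.54 ± 0.12 (adjusted p = 1.88e-06). Arrays of both genes were separated by more than 1 log2 unit between the groups. SESN2, a sestrin that also restrains mTORC1 and is a p53 target as well, was 7.71 and 7.61 against 8.57 and 8.78, a log2 difference of 1.01 ± 0.08 (adjusted p = 1.88e-06). Among 21 measured p53 response genes SESN2 was the sole member past the threshold, beside 3.02% of all genes.

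Genes of glutathione and cysteine supply rose with them. CHAC1, an enzyme that breaks down glutathione, was 9.20 and 9.21 in siD1+3B and 10.48 and 10.51 in siD1+3A+3B (log2 difference 1.29 ± 0.12, adjusted p = 7.75e-06). SLC7A11, the cystine importer, was 11.28 and 11.23 against 11.83 and 11.85 (0.58 ± 0.05, adjusted p = 1.88e-06). CTH, which makes cysteine from cystathionine, was 10.00 and 10.03 against 10.48 and 10.51 (0.49 ± 0.06, adjusted p = 0.000143). In all of these the higher arrays were those of siD1+3A+3B. ASNS, asparagine synthetase, moved less, from 10.23 and 10.14 to 10.48 and 10.46 (0.29 ± 0.07, adjusted p = 0.0377).

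Amino acid transporters and mitochondrial one-carbon enzymes followed the same direction. SLC7A5, the light chain of the large neutral amino acid transporter, was 8.81 and 8.75 in siD1+3B and 9.56 and 9.62 in siD1+3A+3B (log2 difference 0.81 ± 0.07, adjusted p = 1.88e-06). PCK2, the mitochondrial phosphoenolpyruvate carboxykinase, was 7.22 and 7.20 against 7.95 and 7.91 (0.73 ± 0.09, adjusted p = 0.000116). ALDH1L2, a mitochondrial folate enzyme, was 8.08 and 8.06 against 8.78 and 8.71 (0.67 ± 0.07, adjusted p = 2.27e-05). Smaller differences past the threshold were those of the transporters SLC1A4 (0.46), SLC3A2 (0.27) and SLC7A1 (0.27) and of the serine and glycine enzymes SHMT2 (0.27) and PSAT1 (0.22).

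The transcription factors of the response split. DDIT3, the stress factor also called CHOP, rose from 8.50 and 8.59 to 9.23 and 9.17 (0.66 ± 0.06, adjusted p = 6.98e-06), and ATF3 from 5.30 and 5.46 to 5.85 and 6.11 (0.60 ± 0.12, adjusted p = 0.0138). TRIB3, a pseudokinase induced by ATF4 and DDIT3, rose by 0.64 ± 0.12 on the log2 scale (adjusted p = 0.0056). ATF4 mRNA itself was 10.85 and 10.84 in siD1+3B and 10.84 and 10.86 in siD1+3A+3B, with overlapping arrays and a log2 difference of 0.01 ± 0.05 (adjusted p = 0.972). ATF4 is known to be controlled mainly in its translation, which these arrays do not measure. CEBPB (0.19), CEBPG (0.13), ATF5 (0.15) and JDP2 (0.26) did not pass the test.

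Related branches of stress signalling were called in few members, beside 1.34% of all genes called higher and 1.68% lower. Of 19 aminoacyl-tRNA synthetases, enzymes that charge tRNA and several of which are ATF4 targets, GARS1 (0.19, adjusted p = 0.0128) and AARS1 (0.21, adjusted p = 0.0437) were higher, and the list's median was 0.01. Of 19 endoplasmic reticulum chaperones and unfolded protein response genes, HERPUD1, a factor of protein degradation at the endoplasmic reticulum, was the sole member called, at 8.97 and 8.87 against 9.38 and 9.44 (0.49 ± 0.06, adjusted p = 0.000143). The median of that list was also 0.01. Of 17 heat shock and proteasome genes 1 was lower (PSMD11, -0.22, adjusted p = 0.0242).

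**Figure D2:**
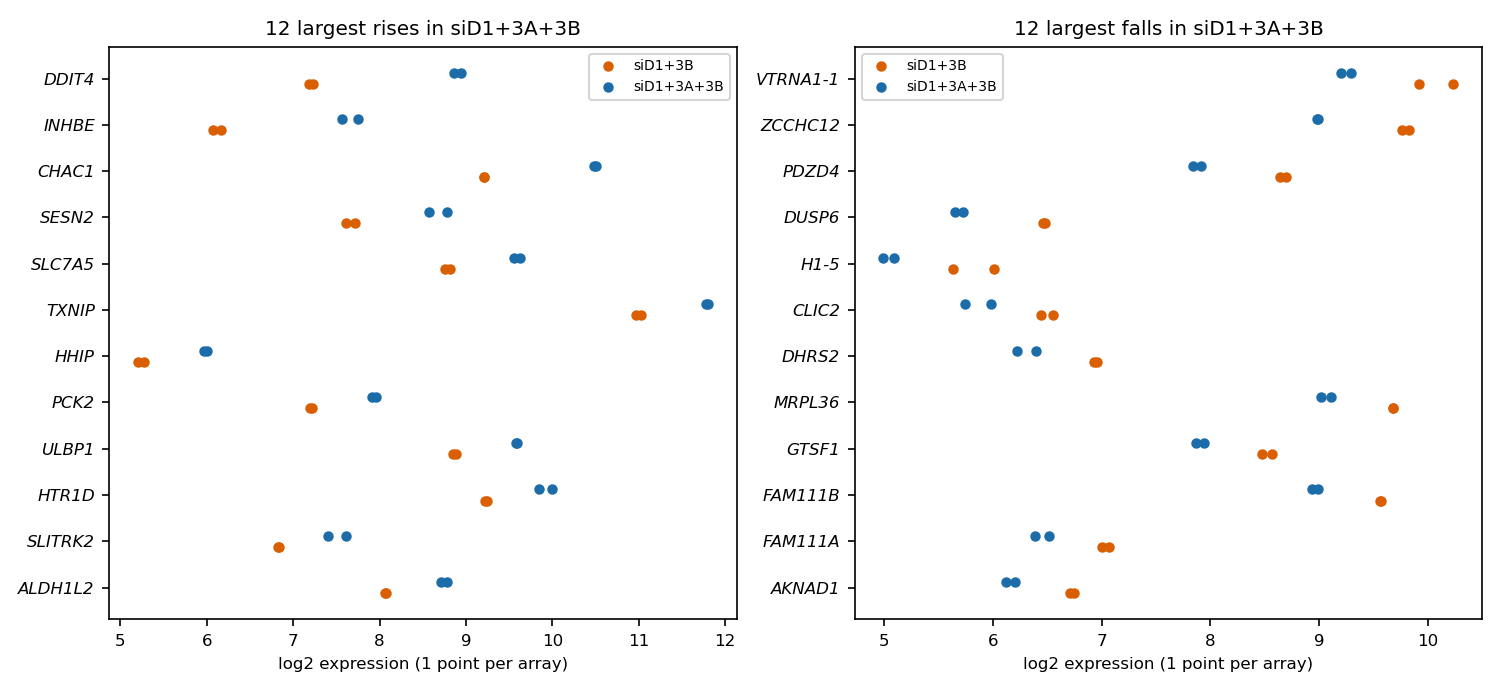
Log2 expression of the 12 largest rises and the 12 largest falls past the threshold, 1 point per array, with siD1+3B in orange and siD1+3A+3B in blue. The rule for naming these genes required that the arrays of both groups be separated, and DDIT4 (7.18 and 7.23 against 8.86 and 8.94) shows the widest gap.

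Other large rises lay outside the stress list. TXNIP, an arrestin that binds thioredoxin and restrains glucose uptake, was 11.02 and 10.96 in siD1+3B and 11.77 and 11.80 in siD1+3A+3B (log2 difference 0.79 ± 0.07, adjusted p = 5e-06). Its relative ARRDC4 was higher by 0.45 ± 0.11 (adjusted p = 0.0299). In the list of 15 oxidative stress and thioredoxin genes that holds both, SLC7A11 was the remaining rise, and NQO1, a quinone reductase and NRF2 target, fell from 10.13 and 10.08 to 9.68 and 9.60 (-0.47 ± 0.06, adjusted p = 0.000296). The median of that list was -0.05, so the list had no common direction. Over all genes 1.34% were called higher and 1.68% lower.

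HHIP, a surface protein that sequesters hedgehog ligands and is itself a hedgehog target, was 5.27 and 5.20 in siD1+3B and 6.002 and 5.963 in siD1+3A+3B (log2 difference 0.74 ± 0.07, adjusted p = 1.02e-05). PTCH1, the hedgehog receptor and a target of the pathway, was 9.83 and 9.90 against 10.12 and 10.13 (0.26 ± 0.06, adjusted p = 0.023). They were 2 of 13 measured hedgehog genes, beside 1.34% of all genes called higher. At an unadjusted p under 0.05, 4 of the 13 were higher and 0 lower. ULBP1, a ligand of the natural killer cell receptor NKG2D, was 8.85 and 8.89 against 9.58 and 9.59 (0.71 ± 0.07, adjusted p = 2.03e-05). HTR1D, a serotonin receptor, was 9.24 and 9.23 against 9.85 and 9.99 (0.69 ± 0.08, adjusted p = 4.81e-05). SLITRK2, a synaptic adhesion protein, was 6.82 and 6.84 against 7.40 and 7.61 (0.68 ± 0.07, adjusted p = 2.58e-05).

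VEGFA, the vascular growth factor, rose from 7.93 and 7.97 to 8.47 and 8.50 (0.53 ± 0.08, adjusted p = 0.00169). In its list of 31 hypoxia and glycolysis genes the neuronal enolase ENO2 was also higher (0.21, adjusted p = 0.02), the adenylate kinase AK4 was lower (-0.36, adjusted p = 0.006), and the median was -0.00. Of all genes 1.34% were called higher and 1.68% lower.

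On all 12 of the largest rises both siNTC-2 arrays lay above both siD1+3A+3B arrays, so siD1+3A+3B stood between siD1+3B and this control. These genes were chosen by their rise from siD1+3B. The share of all genes placed in this way was not counted, so the number describes these 12 genes only. DDIT4 was 9.46 and 9.54 in siNTC-2, CHAC1 11.16 and 11.25, and TXNIP 12.19 and 12.21. In siNTC-1 these 3 genes were far lower: DDIT4 was 6.80 and 6.94, CHAC1 7.44 and 7.91 and TXNIP 8.30 and 8.54. The controls bracket both groups for these 3 genes, and a direction against a control depends on which control is taken. Against siNTC-2, 29 of the 30 stress response genes were lower in siD1+3B (median -1.15; 13.3% of all genes were lower) and 29 were lower in siD1+3A+3B (median -0.72; 10.8% of all genes). These comparisons share the siNTC-2 arrays and the arrays of the main comparison, so the values are set side by side with no test between them.

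**Figure D3:**
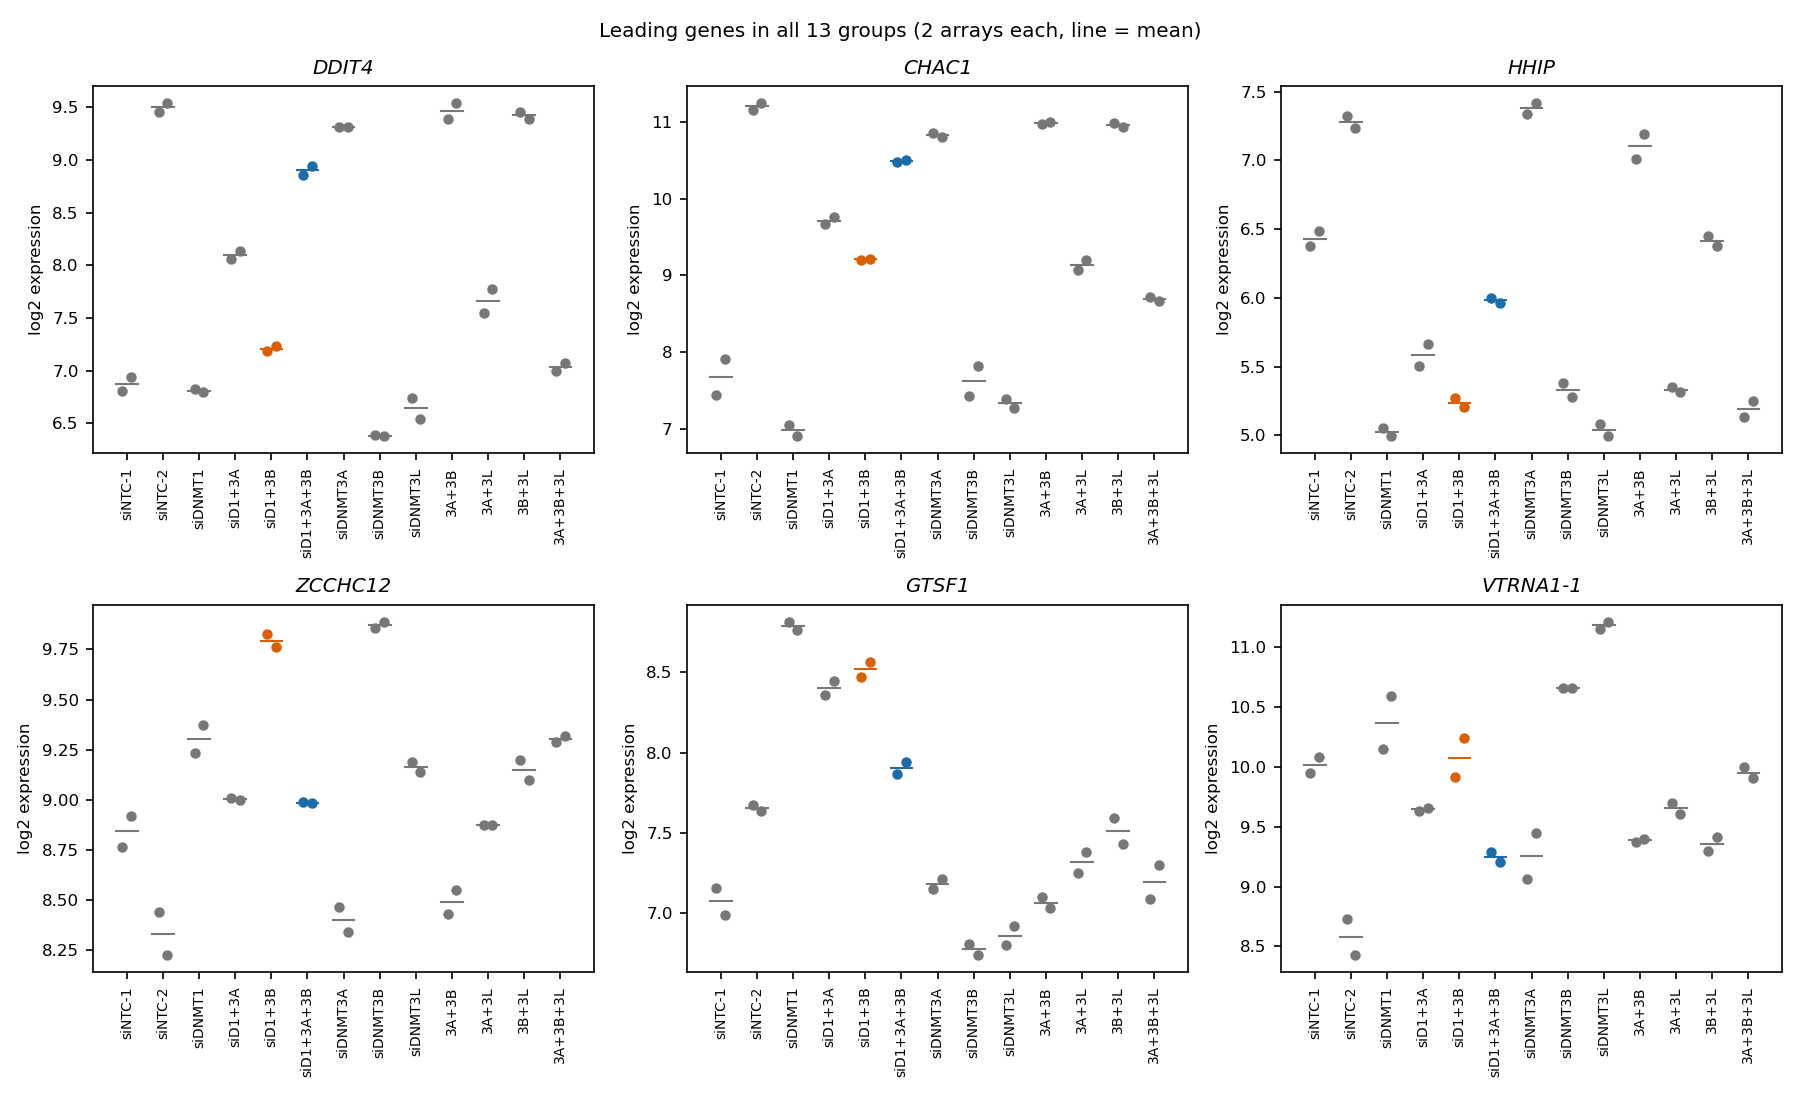
Log2 expression of DDIT4, CHAC1, HHIP, ZCCHC12, GTSF1 and VTRNA1-1 in all 13 groups, 1 point per array and a line at the mean of 2 arrays, with siD1+3B in orange and siD1+3A+3B in blue. DDIT4 ran from a mean of 6.38 in siDNMT3B to 9.50 in siNTC-2, with siD1+3B at 7.21 and siD1+3A+3B at 8.90.

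The falls included small structured RNAs. Of the 8 measured RNAs made by RNA polymerase III, 3 fell, beside 1.68% of all genes, all of them vault RNAs, the short RNAs of the vault particle. VTRNA1-1 was 9.92 and 10.24 in siD1+3B and 9.29 and 9.20 in siD1+3A+3B (log2 difference -0.83 ± 0.14, adjusted p = 0.0024). VTRNA1-2 was 10.87 and 10.91 against 10.41 and 10.43 (-0.47 ± 0.06, adjusted p = 0.000111), and VTRNA1-3 was 9.26 and 9.40 against 8.83 and 8.96 (-0.44 ± 0.11, adjusted p = 0.0454). No array of siD1+3A+3B reached the siD1+3B arrays in any of them. VTRNA1-1 had an adjusted p of 0.0628 without siD1+3B replicate 2, and 1 of the 8 genes was called in that fit. Vault RNAs are alike in sequence, so probes may be shared between them.

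Small nucleolar RNAs, which guide modification of ribosomal and spliceosomal RNA, were called lower in part, with smaller differences. Of 115 C/D box RNAs, the guides of ribose methylation, 14 fell, none rose by limma (4 higher and 32 lower at an unadjusted p under 0.05), and the median was -0.09, beside 1.68% of all genes called lower. The C/D box members with the smallest adjusted p were SNORD60 (-0.37, 0.00105), SNORD14C (-0.45, 0.00213), SNORD43 (-0.46, 0.0101) and SNORD116-11 (-0.24, 0.0196). Of 77 H/ACA box and Cajal body RNAs, guides of pseudouridylation, 10 fell, none rose (3 higher and 25 lower at an unadjusted p under 0.05), and the median was -0.11. SNORA24 led them, at 9.89 and 9.74 in siD1+3B and 9.31 and 9.32 in siD1+3A+3B (-0.49 ± 0.05, adjusted p = 2.64e-05). Leaving out any 1 of the 4 arrays left 2 C/D box RNAs and 2 to 3 H/ACA box RNAs called, and the fit of the 4 arrays alone left 0 of either. Most of these RNAs lie in introns of host genes, and a probe in an intron cannot separate the mature RNA from its host's precursor.

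Some subunits of the respiratory chain and ATP synthase fell by small amounts. Of 78 measured subunits 11 were lower, beside 1.68% of all genes, none was higher (0 higher and 37 lower at an unadjusted p under 0.05), and the median was -0.13. NDUFS4, a complex I subunit, was 10.87 and 10.88 in siD1+3B and 10.43 and 10.40 in siD1+3A+3B (-0.46 ± 0.07, adjusted p = 0.00161). NDUFA2 of complex I (-0.27, adjusted p = 0.00606), COX6B1 of complex IV (-0.23, 0.00901) and ATP5PD of the ATP synthase (-0.22, 0.012) were also past the threshold. MRPL36, a protein of the mitochondrial ribosome outside that list, fell from 9.68 on both siD1+3B arrays to 9.02 and 9.11 (-0.62 ± 0.06, adjusted p = 8.29e-06). Without siD1+3B replicate 1 or 2 the number of subunits called was 2 and 1, without siD1+3A+3B replicate 1 or 2 it was 2 and 3, and in the fit of the 4 arrays alone it was 0.

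Among germline genes, whose promoters are known targets of DNA methylation, GTSF1 was the sole 1 of 28 measured to be called. Over all genes 3.02% were called, 1.34% higher and 1.68% lower. GTSF1, a zinc finger protein of piRNA-guided silencing, was 8.47 and 8.57 in siD1+3B and 7.87 and 7.94 in siD1+3A+3B, and 7.67 and 7.64 in siNTC-2. It fell by 0.61 ± 0.08 on the log2 scale (adjusted p = 0.000243), or 1.53-fold. Across the 13 groups its highest mean was 8.79, in siDNMT1, and the means of the 4 groups with DNMT1 siRNA were the highest 4, with siD1+3A+3B at 7.90 the lowest of them. Its promoter is shown because the enzymes targeted here act on CG dinucleotides, which are in capitals: it holds 8 of them in the 250 bases before the start (chr12:54473603-54473852, minus strand, GRCh38.p14), beside a median of 17 per promoter of the genes on the array and 11 in the whole table.
GTSF1: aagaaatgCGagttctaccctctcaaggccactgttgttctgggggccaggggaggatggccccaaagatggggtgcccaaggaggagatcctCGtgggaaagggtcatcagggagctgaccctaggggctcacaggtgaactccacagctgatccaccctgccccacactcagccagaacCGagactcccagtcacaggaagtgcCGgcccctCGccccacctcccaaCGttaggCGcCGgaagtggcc
Methylation was not measured on these arrays. Of 22 measured meiosis genes DMC1, the meiotic recombinase, was lower (-0.31, adjusted p = 0.0239). Of 41 cancer-testis antigens SSX3 was lower (-0.45, adjusted p = 0.00427) and BAGE2 (0.26, 0.017) and BAGE5 (0.24, 0.0387) were higher; members of these families are near-identical, and their probes may be shared.

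Histone and chromatin genes were lower where they were called. H1-5, a linker histone of replicating cells, was 5.63 and 6.01 in siD1+3B and 5.09 and 4.99 in siD1+3A+3B (-0.78 ± 0.12, adjusted p = 0.00166). Of 57 replication-dependent histones 5 fell, beside 1.68% of all genes, the others being H3C11 (-0.46), H2BC11 (-0.26), H3C7 (-0.26) and H4C8 (-0.19), none rose (2 higher at an unadjusted p under 0.05), and the median was -0.10. Quantile normalization left 4 lower and brought 1 higher, and leaving out 1 of the 4 arrays left 1 to 2 lower. Copies of a histone are near-identical, so single copies are uncertain. CBX1, the heterochromatin protein HP1 beta, fell from 9.33 and 9.24 to 8.77 and 8.94 (-0.43 ± 0.07, adjusted p = 0.00146). It was 1 of 2 lower among 30 methyl-CpG readers and silencers, with ZBTB33, a methyl-CpG binding repressor (-0.16, adjusted p = 0.0431).

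DUSP6, the phosphatase that is induced by and inactivates ERK kinase, was 6.48 and 6.46 in siD1+3B and 5.65 and 5.72 in siD1+3A+3B (-0.78 ± 0.14, adjusted p = 0.00528). FOS, an immediate-early transcription factor, was 6.29 on both siD1+3B arrays and 5.85 and 5.80 in siD1+3A+3B (-0.46 ± 0.07, adjusted p = 0.00225). With EGR1 (-0.32, adjusted p = 0.0355) and ETV4 (-0.23, adjusted p = 0.0377) they were 4 of 23 ERK feedback and immediate-early genes that fell, beside 1.68% of all genes, none rose (1 higher at an unadjusted p under 0.05), and the median was -0.07. Leaving out 1 of the 4 arrays left 1 to 2 of them called. The adjusted p of DUSP6 was between 0.000442 and 0.0593 over all alternatives, and it missed the threshold without either siD1+3B array or siD1+3A+3B replicate 1.

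The other large falls had no common role. ZCCHC12, a zinc finger coactivator of BMP signalling, was 9.82 and 9.76 in siD1+3B and 8.99 and 8.98 in siD1+3A+3B (-0.81 ± 0.07, adjusted p = 5e-06). PDZD4, a PDZ domain protein, was 8.64 and 8.70 against 7.91 and 7.84 (-0.80 ± 0.08, adjusted p = 3.12e-05). FAM111B, a protease, was 9.57 and 9.56 against 8.99 and 8.94 (-0.60 ± 0.05, adjusted p = 4.4e-06). These 3 genes were clearly separated between the groups. Its relative FAM111A, a protease active at replication forks, was 7.00 and 7.07 against 6.38 and 6.51 (-0.59 ± 0.12, adjusted p = 0.00995). DHRS2, a short-chain dehydrogenase, was 6.92 and 6.95 against 6.22 and 6.40 (-0.63 ± 0.08, adjusted p = 0.000353). CLIC2, a chloride channel family protein, was 6.55 and 6.44 against 5.74 and 5.98 (-0.64 ± 0.12, adjusted p = 0.00912). AKNAD1 was 6.71 and 6.74 against 6.12 and 6.21 (-0.56 ± 0.15, adjusted p = 0.0446). AKNAD1 missed the threshold in 7 alternatives, each of the 4 single-array omissions among them, with an adjusted p from 0.00532 to 0.244 over all of them. CLIC2 (0.00145 to 0.12) and FAM111A (0.00173 to 0.105) missed it without either siD1+3B array, without siD1+3A+3B replicate 1 and in the fit of the 4 arrays. On 10 of the 12 largest falls both siNTC-2 arrays lay below both siD1+3A+3B arrays, the exceptions being FAM111A and AKNAD1. These genes were chosen by their fall from siD1+3B, and the share of all genes placed in this way was not counted.

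Developmental signalling genes changed singly, beside 1.34% of all genes called higher and 1.68% lower. ID3, a target of BMP signalling, fell from 10.19 and 10.16 to 9.70 on both siD1+3A+3B arrays (-0.47 ± 0.06, adjusted p = 0.000235), while FST, which binds activin, was higher (0.42, adjusted p = 0.02) and so was the ligand BMP2 (0.29, 0.0382). They were 3 of 24 nodal, TGF-beta and BMP genes. In the retinoic acid list of 16, the vitamin A receptor STRA6 was lower (-0.41, adjusted p = 0.00427) and the retinoic acid carrier CRABP2 (0.43, 0.0056) and the homeobox factor MEIS2 (0.33, 0.02) were higher. Of 29 Wnt pathway genes the secreted antagonist SFRP2 was lower (-0.25, adjusted p = 0.00808).

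A few pluripotency and lineage genes were called. The share was 8.33% of pluripotency, 13.3% of neuroectoderm and neural crest, 8.33% of trophoblast and 25% of yolk sac tumour and seminoma genes. Over all genes 1.34% were called higher and 1.68% lower. Each of these list shares rests on 1 or 2 genes. Of 24 measured pluripotency genes OTX2, a homeobox factor that is also on the neuroectoderm list, was higher (0.33 ± 0.05, adjusted p = 0.00108) and ZFP42, a naive-state zinc finger factor, was lower (-0.21, adjusted p = 0.0448). TFAP2A (0.26, adjusted p = 0.0103) was also called on the neuroectoderm and neural crest list of 15, TFAP2C (0.21, 0.0459) on the trophoblast list of 12, and GPC3 (0.29, 0.00293) with TFAP2C on the list of 8 yolk sac tumour and seminoma markers. No member of the embryonal carcinoma, endoderm or mesoderm lists was called by limma, and at an unadjusted p under 0.05 the numbers higher and lower were 0 and 3, 0 and 3, and 1 and 1.

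Surface and matrix genes went both ways. Of 38 extracellular matrix and adhesion genes 7 fell and 3 rose, beside 1.68% and 1.34% of all genes, with a median of 0.05. THY1, a surface glycoprotein, was 10.70 and 10.68 in siD1+3B and 10.22 and 10.30 in siD1+3A+3B (-0.44 ± 0.07, adjusted p = 0.00277). The epithelial keratin KRT18 was lower (-0.45, adjusted p = 0.00331), as was tenascin TNC (-0.34, 0.00375), and fibrillin FBN1 was higher (0.35, 0.0124). Leaving out 1 of the 4 arrays left 1 to 3 lower and 0 higher.

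Few members of the remaining lists passed in number. Over all genes 1.34% were called higher and 1.68% lower. The share called was 11.1% of cholesterol synthesis, 6.06% of interferon and 5.71% of DNA replication genes. It was 4.76% of the G1, 4.17% of the imprinted and 3.12% of the ribosomal protein genes. Of 33 interferon response and RNA sensing genes the membrane proteins IFITM3 (0.33, adjusted p = 0.00893) and IFITM1 (0.24, 0.00956) were higher. Of 18 cholesterol synthesis genes INSIG1, a brake on sterol synthesis, was lower (-0.40, adjusted p = 0.00734), and so was the enzyme MVD (-0.37, 0.0256); leaving out 1 of the 4 arrays left 0 or 1 of them. Of 24 imprinted genes NNAT was lower (-0.33, adjusted p = 0.0242). Of 64 cytosolic ribosomal protein genes RPL26L1 (-0.34, adjusted p = 0.0116) and RPS7 (-0.21, 0.0131) were lower. Of 35 DNA replication genes GINS1 (-0.23, adjusted p = 0.0337) and MCM10 (-0.22, 0.0449) were lower, and of 21 G1 cyclins and CDK inhibitors the cyclin CCNE2 (-0.54, 0.0358). Among 480 zinc finger genes 2 were higher and 2 lower, below the share over all genes.

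In 6 of the 37 pathway lists limma called no member. At an unadjusted p under 0.05 there were 0 higher and 1 lower of 29 clustered protocadherins, 1 and 0 of 8 envelope genes derived from endogenous retroviruses, 0 and 1 of 13 genes of small RNA silencing, 0 and 0 of 10 metallothioneins, 1 and 1 of 10 fatty acid synthesis genes, and 1 and 6 of 26 mitosis genes.

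**Figure D4:**
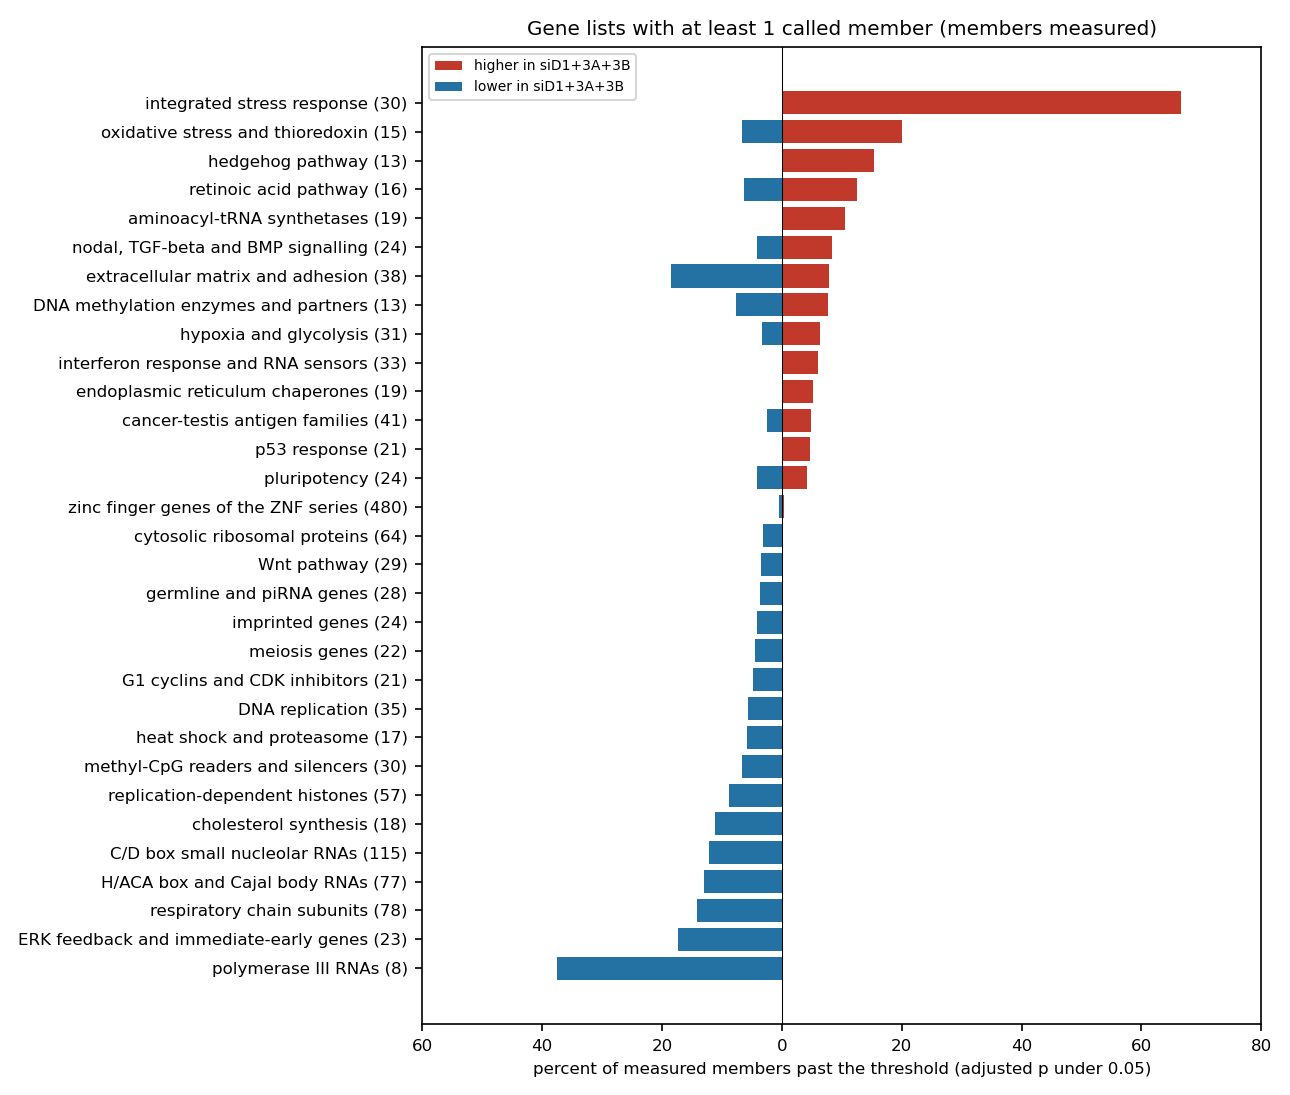
Share of the measured members of each pathway list past an adjusted p of 0.05, in percent, with higher in siD1+3A+3B to the right in red and lower to the left in blue, for the 31 lists with at least 1 called member. The integrated stress response list stands out to the right with 20 of 30 members, while 1.34% of all genes were called higher and 1.68% lower.

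The same siRNA was added in 2 other settings that share no array with the comparison above: by their labels, to DNMT3B and DNMT3L siRNA (3A+3B+3L against 3B+3L), and alone (siDNMT3A against siNTC-2). DNMT3A mRNA fell by 0.30 (adjusted p = 0.0064) and by 0.53 (adjusted p = 6.7e-05) on the log2 scale, and neither differed from the fall beside DNMT1 and DNMT3B siRNA by the test of the difference (adjusted p = 0.363 and 0.762). The arrays labelled 3A+3B+3L went against their label in DNMT3B: its mRNA was 11.63 and 11.69 on them, as in siNTC-2 (11.68 and 11.66), and 11.28 and 11.14 in 3B+3L. DNMT3B thus rose by 0.45 ± 0.06 in that comparison (adjusted p = 4.32e-05), and every direction taken from the arrays labelled 3A+3B+3L carries this difference too. A weak knockdown and a mix-up with another group, such as 3A+3L, cannot be told apart here, so the comparison is not shown to be an addition to DNMT3B and DNMT3L siRNA. In that setting 3481 genes were called (18.9%; 7.59% higher and 11.3% lower), and with the siRNA alone 2911 (15.8%; 8.44% higher and 7.36% lower).

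Most stress response genes were lower in those settings, with the siRNA alone set against siNTC-2. Of the same 30 genes, 29 were lower in the arrays labelled 3A+3B+3L than in 3B+3L, with a median of -1.24, and 22 were lower in siDNMT3A than in siNTC-2, with a median of -0.34. The difference from the effect beside DNMT1 and DNMT3B siRNA was past the threshold for 29 of 30 genes in the former case (median 1.51). In the latter it was past it for 26 (median 0.81), in each case upward. Both differences contain the rises described above, so they are not separate support. Over all genes the test of the difference called 14.8% against the arrays labelled 3A+3B+3L and 3B+3L (8.43% higher and 6.37% lower) and 8.07% against the siRNA alone (3.59% higher and 4.48% lower). DDIT4 fell by 2.39 in the arrays labelled 3A+3B+3L (adjusted p = 1.12e-12), and its log2 difference was -0.19 with the siRNA alone (adjusted p = 0.123). CHAC1 fell by 2.27 (adjusted p = 3.72e-10) and by 0.38 (adjusted p = 0.0394). Set against siNTC-1, both genes stood higher in siDNMT3A. DDIT4 was 9.31 on both siDNMT3A arrays and 6.80 and 6.94 in siNTC-1. CHAC1 was 10.85 and 10.80 against 7.44 and 7.91. Every direction given for the siRNA alone, and every difference from it, is therefore tied to siNTC-2 as the control. The first principal component given above ran in the same order as these genes in each of the 3 comparisons, and its part in them was not tested.

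HHIP fell by 1.22 in the arrays labelled 3A+3B+3L (adjusted p = 1.48e-09), and its log2 difference with the siRNA alone was 0.10 (adjusted p = 0.41). TXNIP fell by 2.04 (2.59e-12) in the former and by 0.24 in the latter (adjusted p = 0.0263). SLITRK2 fell by 0.21 there (adjusted p = 0.046) but rose by 0.36 with the siRNA alone (adjusted p = 0.00184), as it did beside DNMT1 and DNMT3B siRNA.

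Of the small RNAs, 47 of 115 C/D box RNAs were higher in the arrays labelled 3A+3B+3L than in 3B+3L (7.59% of all genes). In siDNMT3A 31 were higher than in siNTC-2 (8.44% of all genes), where 14 had been lower beside DNMT1 and DNMT3B siRNA. The difference was past the threshold for 46 and 32 of them, all in the lower direction, beside 6.37% and 4.48% of all genes. Both differences contain the falls given above, so they are not separate support. VTRNA1-1 rose by 0.59 (adjusted p = 0.00417) and by 0.68 (adjusted p = 0.00203). Of the 18 cholesterol synthesis genes 14 were higher in the arrays labelled 3A+3B+3L and 11 with the siRNA alone, beside the same shares of all genes. The difference was past the threshold for 14 and 7 of them, all in the lower direction.

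Some leading falls kept their direction in at least 1 of the 2 other settings. GTSF1 was lower in all 3 settings, by 0.32 in the arrays labelled 3A+3B+3L (adjusted p = 0.00783) and by 0.47 with the siRNA alone (adjusted p = 0.000488), and the test of the difference from the 3B+3L setting had an adjusted p of 0.0881. CLIC2 was lower by 0.41 in the arrays labelled 3A+3B+3L (adjusted p = 0.0276, test of the difference 0.462). Its log2 difference with the siRNA alone was 0.27 (adjusted p = 0.165), and the test of the difference from that setting was past the threshold (-0.91, adjusted p = 0.00308). That test contains the fall by which CLIC2 was named. MRPL36 (0.55, adjusted p = 3.06e-06) and FAM111B (0.41, 2.09e-05) were higher in the arrays labelled 3A+3B+3L, while with the siRNA alone FAM111B was lower (-0.28, adjusted p = 0.00123) and MRPL36 was not called (0.11, 0.233). In the arrays labelled 3A+3B+3L, ZCCHC12 (0.15, adjusted p = 0.166), PDZD4 (0.09, 0.529) and DUSP6 (0.13, 0.617) were not called. The test of the difference from that setting gave adjusted p = 4.05e-06, 5.64e-05 and 0.00417. It contains the falls by which these genes were named, so it is not separate support. With the siRNA alone they were not called either (0.07, -0.17 and -0.07, adjusted p = 0.602, 0.198 and 0.824).

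Called genes were compared between the settings as well. Of the 246 genes that rose beside DNMT1 and DNMT3B siRNA, 126 (51.2%) were lower in the arrays labelled 3A+3B+3L, which is 6.05% of the 2084 genes lower there, and 21 (8.54%) were higher. Of the 310 that fell, 94 (30.3%) were higher there, 6.73% of 1397, and 40 (12.9%) lower. With the siRNA alone, 77 of the 246 (31.3%) were higher and 60 (24.4%) lower, and of the 310 that fell 81 (26.1%) were lower and 59 (19%) higher. Of all genes 7.59% were higher and 11.3% lower in the arrays labelled 3A+3B+3L. With the siRNA alone it was 8.44% and 7.36%. The overlaps lay above these shares in both directions, 8.54% and 12.9% only slightly. The settings share no array but use the same estimate of each gene's spread. A gene with a small spread is therefore called more readily in all of them, and the overlap due to this was not computed. Across the 18417 genes, which are not independent replicates, the log2 differences correlated at r = -0.22 with those of the arrays labelled 3A+3B+3L and at r = 0.06 with those of the siRNA alone.

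**Figure D5:**
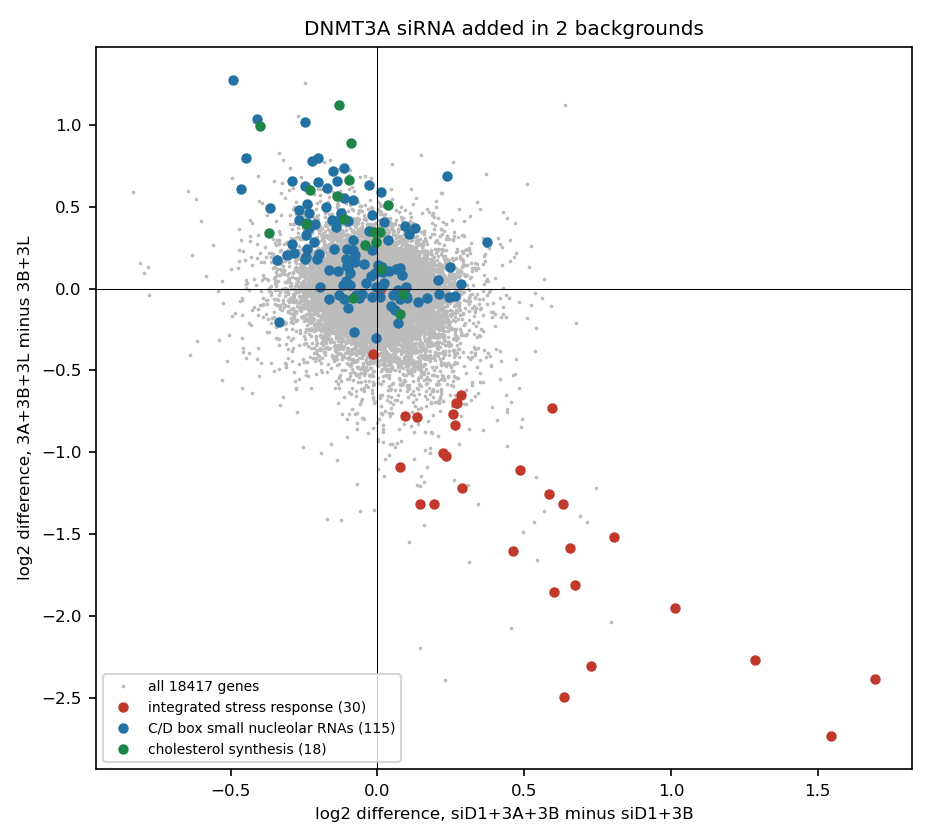
Log2 difference of each of 18417 genes on addition of DNMT3A siRNA to DNMT1 and DNMT3B siRNA (horizontal) and to DNMT3B and DNMT3L siRNA (vertical, by label: arrays labelled 3A+3B+3L minus 3B+3L), grey, with 3 gene lists in colour. Of the 30 stress response genes 29 lie at the lower right (medians of the 30: 0.37 and -1.24), some of them close to an axis. The 18 cholesterol synthesis genes are mostly above 0 on the vertical axis (median 0.37) and slightly below 0 on the horizontal (median -0.09).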

How the data were processed

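Biotinylated cDNA from 250 ng of total RNA was hybridised to 26 arrays, per the labels' protocols. The table deposited by the authors gives log2 expression for each transcript cluster; Partek is named in the submitters' processing notes without a role, base 2 is inferred from values of 3.04 to 14.87, and the normalization is not given in the sources used here. Of 33297 rows, 19460 carry 1 gene symbol, 1754 several and 12083 none; the row with the highest mean was kept per symbol (769 genes had several), which left 18417 genes. RefSeq GRCh38.p14 was used for names and promoters.

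A model with 13 group means was fitted to 26 arrays with limma 3.58.1 (R 4.3.3; lmFit, eBayes, two-sided moderated test, 13 residual degrees of freedom). Adjustment was by Benjamini-Hochberg over all genes, with 0.05 as the threshold. The script was tested on simulated data. The smallest exact p of 2 against 2 arrays is 0.333, so no test of single values was made. The number of arrays limits the precision. Background signal compresses differences of weakly expressed genes, and a shift common to all genes would not be visible.

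Named genes are the 12 largest rises and falls past the threshold with separated arrays, the 4 targets, up to 4 members per list with the smallest adjusted p (more where needed to describe it), and the 4 largest differences between settings in each direction. The comparison, the 43 lists (37 pathway, 6 marker lists) and the rule were chosen with earlier results of these data known, so lists are described by counts and medians. The genes singled out at the 0.05 threshold and members named for not passing were chosen after their values were seen. Alternatives were dropping the 40% of genes with the lowest means, quantile normalization, a trended robust prior, array weights, a replicate block, all rows with 1 symbol, fewer groups in the fit and each array left out.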

Additional observations from a re-analysis of the deposited data

Results flagged for a closer look

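The effect of adding DNMT3A siRNA to DNMT1 and DNMT3B siRNA differed from the difference between the arrays labelled 3A+3B+3L and 3B+3L for 2726 genes by the limma test of the difference. The largest differences, on the log2 scale as the former effect minus the latter, were 4.28 for INHBE (adjusted p = 1.29e-11), 4.08 for DDIT4 (8.47e-14), 3.56 for CHAC1 (1.15e-10) and 3.13 for TRIB3 (3.46e-10). In the other direction they were -1.77 for the small nucleolar RNA SNORD14E (2.51e-06), -1.5 for the spliceosomal RNA RNU5D-1 (6.03e-07), -1.45 for SNORD50B (3.69e-05) and -1.42 for VTRNA1-1 (5.63e-05). INHBE, DDIT4, CHAC1 and VTRNA1-1 were named above for their changes beside DNMT1 and DNMT3B siRNA. Such changes are part of each difference given here, which is therefore not separate support. DNMT3B mRNA on the arrays labelled 3A+3B+3L was at the siNTC-2 level, against their label, and its part in these differences was not tested.

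From the effect of the siRNA alone against siNTC-2 it differed for 1486 genes. INHBE (1.98, adjusted p = 1.85e-06), DDIT4 (1.88, 2.23e-08), CHAC1 (1.67, 8.93e-06) and TRIB3 (1.57, 9.64e-06) again had the largest positive differences. VTRNA1-1 (-1.51, 7.07e-05), the minor spliceosome RNA RNU11 (-1.32, 1.2e-05), VTRNA1-2 (-1.27, 3.36e-08) and RNU5B-1 (-1.27, 0.018) had the largest negative ones. These differences too contain the changes beside DNMT1 and DNMT3B siRNA. RNU5B-1 stood at 8.29 and 7.44 on the siNTC-2 arrays, and its difference was -0.843 without siNTC-2 replicate 2 and missed the threshold in 5 alternatives.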

How the results depend on the processing

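The count of 556 genes moved to 923 without the dimmest 40% of genes, 922 with a trended and robust prior, 1042 with array weights, 12 with the 4 arrays alone in the fit, and 114 to 165 with 1 array left out. Quantile normalization gave 735, 51.8% of them higher against 44.2%. DNMT3A kept its direction throughout (-0.387 to -0.534 with 1 array left out) and missed the threshold with the 4 arrays alone (-0.460, adjusted p = 0.119, range over alternatives 0.000644 to 0.119). DNMT3L, not called in these fits, was between -0.172 and 0.166 with 1 array left out and changed sign without siD1+3B replicate 1 (0.166) and siD1+3A+3B replicate 2 (0.0186).

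For the arrays labelled 3A+3B+3L against 3B+3L the count of 3481 ranged from 2149 to 2454 with 1 array left out (2190 and 2149 without 3A+3B+3L replicate 1 or 2), and quantile normalization raised the higher share from 40.1% to 50.8%. For siDNMT3A against siNTC-2 the count of 2911 was 1291 with those groups alone and 1614 to 1924 with 1 array left out. The count of 1486 was 905 with the groups compared alone and 906 to 1059 with 1 array left out, and that of 2726 ranged from 1910 to 2109. Of the values of single named genes over the alternatives, 296 kept direction and side of the threshold, 33 lost the call, 2 gained it and 2 changed sign. Fewer residual degrees of freedom and fewer arrays come with the smaller fits; the cause of the other shifts was not tested.

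Replicate numbers are shared between groups. Deviations of same-numbered arrays correlated at -0.05 for siD1+3A+3B with siD1+3B. Over all 78 pairs of groups they correlated between -0.26 and 0.19, with 9 pairs above 0.1. No large common shift of same-numbered arrays was seen. The labels do not say whether such arrays share a culture or run, and these values cannot tell. The replicate block gave 518 genes, 498 of them among the 556.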
